A study of Mus musculus with 66 samples.

Results

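The TNF superfamily is a set of signalling proteins, the ligands, and of the receptors that bind them. Its members were taken by symbol from a transcript table of mouse colon: every gene named Tnfsf or Tnfrsf followed by a number and at most letters, plus Tnf, Lta, Ltb, Cd40, Cd40lg, Fas, Fasl and Ltbr. This gave 39 of the 30452 genes in the table, of which 16 are ligands and 23 are receptors. Of these, 35 reached 1 TPM (an abundance per transcript length that adds up to 1 fixed total per sample) in at least 1 of 66 samples, and 20 had a mean of at least 10 TPM in at least 1 group. Cd40lg, Tnfsf4, Tnfsf8 and Tnfsf18, 4 ligands, stayed under 1 TPM in every sample. The samples were mucosa of 19 wild-type C57Bl/6 mice, bought at 6 weeks of age, and the surface was cut from full-thickness colon. At day 0, 4 mice were killed uninjured. The other 15 were given 3% DSS (dextran sulfate sodium, which damages the lining of the colon) from day 0, for 6 days or until killed at day 3. Of these, 3 each were killed at day 3, 6, 9, 14 and 20. Mid-colon, rectum and anus were sampled in every mouse, and squamous neo-epithelium, a squamous lining found in the colon after injury, in the 9 mice of days 9, 14 and 20. Mouse sex is not in the labels used here, and all values come from whole tissue pieces with many cell types.

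Ligands of the family are mostly made as trimers on the surface of immune, stromal or epithelial cells and can be shed. Their receptors either carry a death domain, which can lead to caspase activation, or bind TRAF adaptors, which lead to NF-kB, a group of transcription factors that drive inflammatory genes. In the gut the family is known for TNF, the target of antibodies used against inflammatory bowel disease, for lymphotoxin, which shapes lymphoid follicles, for BAFF and APRIL, which keep B cells and plasma cells alive, and for RANKL, which acts on the epithelium over follicles. Some receptors act as decoys: osteoprotegerin (Tnfrsf11b) is secreted and captures RANKL.

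The gene models of GENCODE M21 (GRCm38, the build that the submitters' notes call mm10) place several members side by side. Ltb (chr17:35194439-35196320), Tnf (chr17:35199381-35202007) and Lta (chr17:35203165-35205351) form the lymphotoxin and TNF cluster, and Tnfrsf26 (chr7:143607659-143628722), Tnfrsf22 (chr7:143634806-143649661) and Tnfrsf23 (chr7:143665809-143685872) form a cluster of mouse decoy and related receptors. Tnfsf13 (chr11:69682846-69685784) and Tnfsf12 (chr11:69686250-69695849) are neighbours joined by an annotated read-through gene, so the split of reads between them is uncertain. RefSeq promoters (GRCm38.p6, from 250 bases before to 50 after a start) were at hand for 30 members, and 4 of these (13.3%) held the NF-kB consensus on either strand, against 2581 of 27025 genes with a promoter (9.55%). The windows around the matches of all 4 are given because they hold the motif; Ltb, Tnfrsf8 and Tnfrsf9 rose in rectum at day 9, while Tnfrsf25 was at most 1.03 TPM in any sample. Capitals mark the letters that match the consensus, and each window runs 5′ to 3′ on the gene's strand. The match begins 87 bases before the RefSeq start in Ltb and 28 in Tnfrsf25, and Tnfrsf8 and Tnfrsf9 each have 2 overlapping matches that begin 168 and 43 bases before it. The RefSeq start can differ from the end of the GENCODE gene model, as it does in Ltb. For Tnfrsf9 that model begins at chr4:150914562, so its window lies inside the model.
Ltb (chr17:35194395-35194454, plus strand): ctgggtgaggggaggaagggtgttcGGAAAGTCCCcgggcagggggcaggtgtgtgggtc
Tnfrsf8 (chr4:145315297-145315357, minus strand): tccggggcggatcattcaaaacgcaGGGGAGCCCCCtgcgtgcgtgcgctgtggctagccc
Tnfrsf9 (chr4:150927931-150927991, plus strand): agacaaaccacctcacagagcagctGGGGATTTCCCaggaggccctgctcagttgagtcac
Tnfrsf25 (chr4:152116290-152116342, plus strand): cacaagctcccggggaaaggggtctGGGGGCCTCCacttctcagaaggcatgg
A match shows only that these letters are present; no binding was measured. Cd40, Cd40lg, Tnfrsf10b, Tnfrsf11b, Tnfrsf22, Tnfrsf26, Tnfsf4, Tnfsf9 and Tnfsf12 had no entry.

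Read depth is unknown, since the table holds no counts. Between 11268 and 13789 genes reached 1 TPM in a sample. The section labels went with their markers at day 0: the summed TPM of 7 squamous markers was 9978 to 16341 in anus, 12.9 to 124 in rectum and 3.73 to 8.98 in mid-colon, while 9 colonic epithelial markers summed to 12320 to 14635 in rectum and 629 to 2295 in anus. Neo-epithelium at day 9 held 30496 to 32672 of the squamous sum and 27.0 to 288 of the colonic sum, and at day 20 the colonic sum was 3394 to 6829. Skeletal muscle markers summed to 1492 to 14336 in day 0 anus and 12.5 to 34.3 in day 0 rectum, although the submitters describe removing muscle from every section. Among the 6 neutrophil markers, Ly6g read 639 ± 64.8 TPM (SD, n = 4) in day 0 rectum, where Csf3r read 0.189 ± 0.0780 and Cxcr2 0.213 ± 0.0699. Most of the neutrophil sum in uninjured rectum was thus Ly6g. Scaling by a trimmed mean of M-values moved the median log2 difference of all genes by over 0.1 in some comparisons, such as rectum at day 6, from -0.27 to -0.04, and rectum at day 9, from 0.13 to -0.04; no called member changed sign.

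In day 0 rectum the 4 most abundant members were receptors: Ltbr, the lymphotoxin beta receptor, at 44.2 ± 5.98 TPM (mean ± SD, n = 4), Tnfrsf21, a death-domain receptor, at 29.5 ± 6.41, Tnfrsf1a, the widely expressed TNF receptor, at 28.5 ± 4.00, and Tnfrsf11a, the RANKL receptor RANK, at 23.8 ± 2.58. Tnfrsf21 and Tnfrsf1a did not differ beyond their spread. The most abundant ligand was Tnfsf13 (APRIL) at 15.7 ± 2.21 TPM, followed by Tnfsf13b (BAFF) at 6.90 ± 1.30, while Tnf read 0.164 ± 0.0617. Mid-colon had the same 5 leading members, with Ltbr at 36.4 ± 8.87 TPM. In anus Tnfrsf1a led at 41.8 ± 3.18 TPM, ahead of Ltbr at 28.6 ± 4.82 and Tnfrsf12a, the receptor of TWEAK, at 24.4 ± 5.01.

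Anus and rectum of uninjured mice differed in 17 of the 22 members tested by limma on log2(TPM + 1), called at an adjusted p under 0.05: 9 were higher in anus and 8 in rectum. Over all genes tested 60.3% were called (25.9% higher in anus, 34.4% lower), so such a share was common between these tissues. Of the 22, 8 reached 1 TPM in the 4 samples needed for the test in only 1 section, so the count does not support a difference of the family. Tnfrsf19, an orphan receptor also called Troy, read 7.88, 8.86, 11.4 and 8.86 TPM in the 4 anal samples and 0.498, 0.758, 0.796 and 0.409 in the rectal ones, a log2 difference of 2.66 (SE 0.17, adjusted p = 9.30e-07). Tnfsf12 (TWEAK) read 11.4, 13.6, 11.6 and 10.0 in anus against 2.71, 3.09, 2.92 and 4.88 in rectum (1.54 on the log2 scale). Its receptor Tnfrsf12a was also higher in anus, at 21.6, 31.1, 25 and 19.7 against 12.1, 9.15, 10.4 and 7.91 TPM (1.22). Ligand and receptor were thus both higher in anus, and in neither did the samples overlap. Tnfrsf18 (GITR, found on regulatory T cells) read 4.82, 6.75, 12.3 and 8.07 in anus and 2.08, 1.82, 2.19 and 1.82 in rectum (1.53). Tnf itself was low in both, at 1.62, 1.07, 1.14 and 1.07 and 0.219, 0.215, 0.103 and 0.118 TPM, and higher in anus by 0.93 on the log2(TPM + 1) scale.

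Higher in rectum were Tnfrsf11a, Tnfrsf14 and Tnfrsf21. Tnfrsf11a read 22.8, 22.5, 27.7 and 22.4 TPM in rectum and 3.02, 4.13, 4.29 and 9.16 in anus, with a log2 difference of -2.10 (SE 0.26, adjusted p = 1.01e-04). Tnfrsf14 (HVEM, the receptor of LIGHT) read 8.86, 10.7, 10.4 and 7.18 against 1.54, 2.46, 1.69 and 4.25 (-1.61), and Tnfrsf21 read 36.0, 30.3, 30.9 and 20.6 against 6.50, 10.1, 11.7 and 13.7 (-1.42). Each of these 3 was lower in every anal sample than in every rectal one. The TNF receptors went in opposite directions: Tnfrsf1a was higher in anus (0.55) and Tnfrsf1b, found mainly on leukocytes, higher in rectum (-0.91). Fas (-0.79), Ltbr (-0.62) and Tnfsf13 (-0.98) were also higher in rectum. So was Tnfrsf10b, the mouse TRAIL death receptor (-0.49). All 9 colonic epithelial markers were lower and all 7 squamous ones higher in anus. A difference between sections can come from fewer cells of a type or from less RNA per cell, which bulk samples cannot tell apart, and the part of these cell types in the results was not tested. Between rectum and mid-colon, 1 of 17 members tested was called (1.79% of all genes): Tnfsf9, the ligand of 4-1BB, at 2.05, 2.51, 2.82 and 1.75 TPM in rectum and 0.927, 0.740, 0.819 and 0.689 in mid-colon. The difference was 0.86 on the log2 scale. The Fas call between anus and rectum at day 0 was lost without mouse 2 (adjusted p = 0.0538). The Tnfrsf10b call between anus and rectum at day 0 was lost in each fit leaving out a mouse other than 2 (adjusted p from 0.0634 to 0.112) and with the mouse as a block (adjusted p = 0.0550). The Tnfsf9 call between rectum and mid-colon at day 0 was lost in each fit leaving out a mouse other than 4 (adjusted p from 0.120 to 0.215) and without a minimum TPM (adjusted p = 0.0547).

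**Figure D1:**
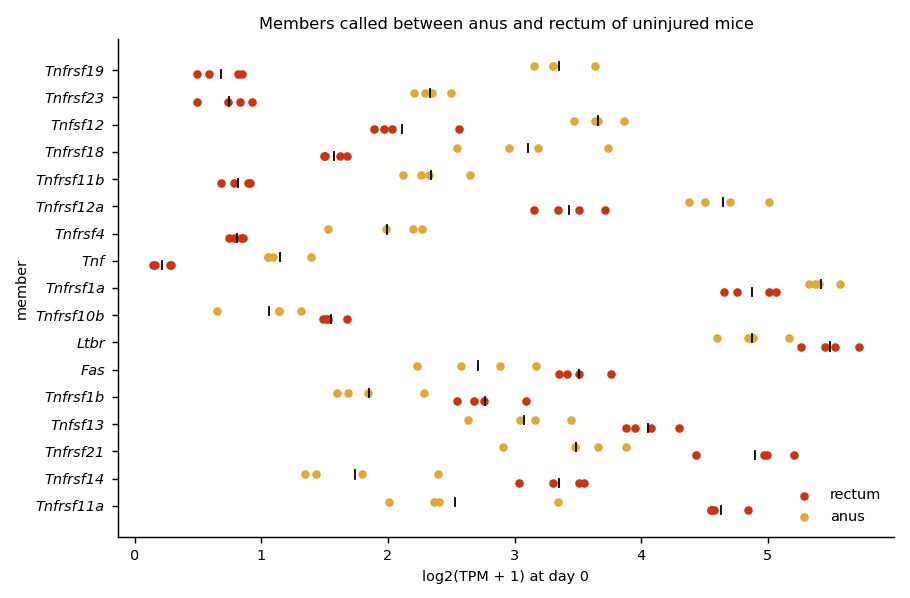
Log2(TPM + 1) of the 17 members called between anus (yellow) and rectum (red) of the 4 uninjured mice; each point is 1 mouse and each bar the mean of the log2 values. Tnfrsf19, at the top, lies between 7.88 and 11.4 TPM in anus and below 1 TPM in rectum, and Tnfrsf11a, at the bottom, is the member with the largest difference in favour of rectum.

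At day 9 in rectum, after DSS had been withdrawn, 30 members were tested. Of these, 22 rose and 3 fell against day 0; over all genes tested 53.5% were called, 33.5% higher and 20% lower. The median log2 difference over the members tested was 1.43, beside 0.13 over all genes. Of the 30, 13 reached 1 TPM in enough samples for the test in only 1 group: Tnfrsf17 at day 0 and the others at day 9. Neither the count nor the median thus supports a rise of the family. At day 6, 11 of 25 members rose and none fell (48.7% of all genes called, 11.5% higher and 37.2% lower). At day 3 no member passed the test out of 17 (6.62% of all genes called, 1.5% higher and 5.13% lower; 3 members had an unadjusted p under 0.05). At day 14, 9 of 25 rose and none fell (15.8%, 6.31% higher and 9.51% lower), and at day 20, 3 of 24 rose and 1 fell (7.68%, 2.79% higher, 4.88% lower). Members that reached 1 TPM in enough samples in only 1 group numbered 8 of 25 at day 6, 7 of 25 at day 14 and 6 of 24 at day 20. The counts of these days thus do not support a rise of the family either. The 5 comparisons of a section share its 4 mice of day 0.

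Mid-colon followed the same days with fewer calls: 8 of 19 members rose at day 6 (14.9% of all genes called, 4.93% higher and 9.99% lower) and none fell, 14 of 23 rose and 1 fell at day 9 (43.4%, 26.5% higher, 17% lower), and 4 of 21 rose at day 14 (4.36%, 2.55% higher and 1.81% lower). By limma no member was called there at day 3 (of 14; 0.375% of all genes called, 0.0666% higher and 0.308% lower; 1 with an unadjusted p under 0.05) or day 20 (of 17; 1.56%, 0.677% higher and 0.883% lower; 6 with an unadjusted p under 0.05). In anus 5 of 24 rose at day 6 (15% of all genes, 8.64% higher and 6.37% lower), 2 of 24 at day 14 (4.27%, 2.26% higher and 2.01% lower) and 1 of 24 at day 20 (1.46%, 1.09% higher and 0.371% lower). None was called in anus by limma at day 3 (of 22; 0.044%, 0.022% higher and 0.022% lower; 5 with an unadjusted p under 0.05) or day 9 (of 22; 5.09%, 1.46% higher and 3.63% lower; 5 with an unadjusted p under 0.05). In mid-colon 5 of the 19, 9 of the 23 and 6 of the 21 members tested at days 6, 9 and 14 reached 1 TPM in enough samples in only 1 group. In anus such members were 4 of 24 at day 6, 3 of 24 at day 14 and 5 of 24 at day 20. The counts in these sections thus do not support a rise of the family. The counts of days 14 and 20 hung on single mice. In rectum at day 14 there were 24 calls without mouse 14, 3 without mouse 15 and 2 without mouse 16, and between 3 and 5 without a day 0 mouse. In rectum at day 20 there were 19 without mouse 19 and 1 without any other mouse. In mid-colon at day 14 there were 13 without mouse 14 and none without mouse 15 or 16 or without mouse 1, 2 or 3 of day 0, and at day 20 there were 5 without mouse 19 and 1 without mouse 4. In mid-colon at day 6 the count was between 2 and 10, with the 10 reached without mouse 4 of day 0 and the 2 without mouse 10.

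**Figure D2:**
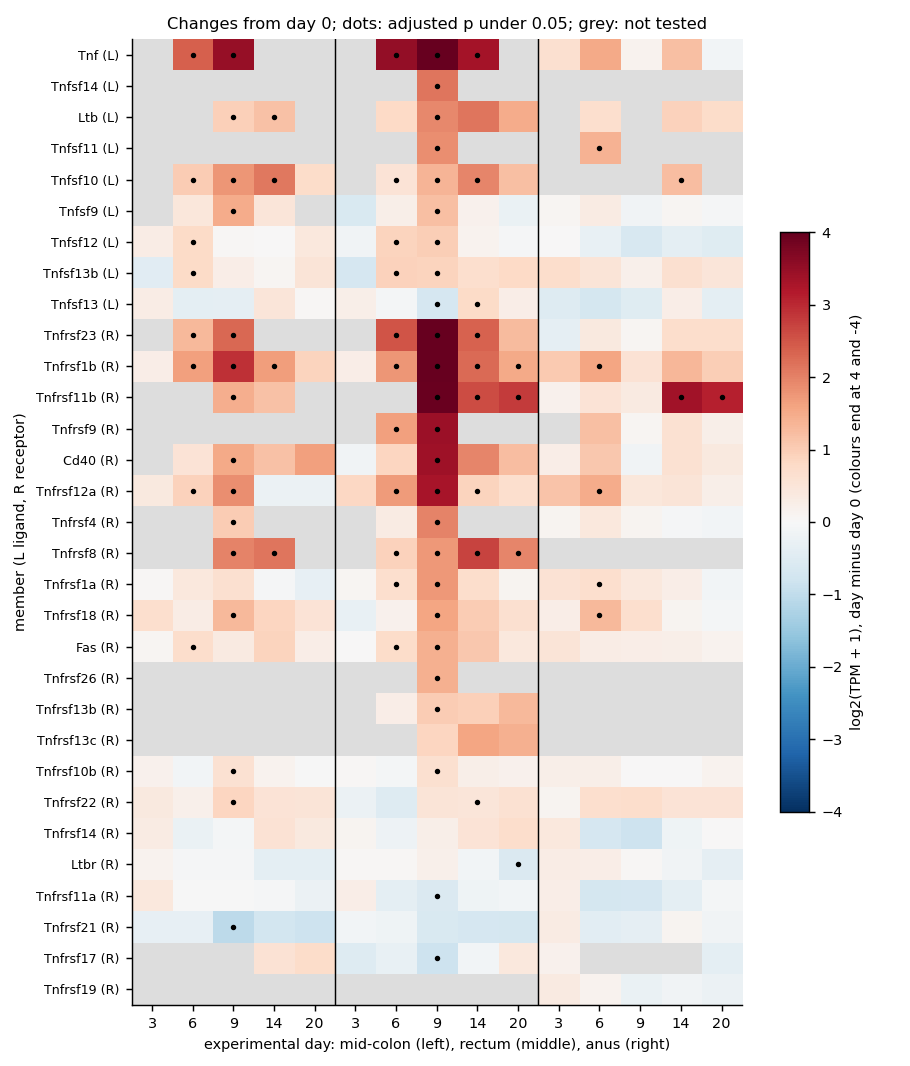
Log2(TPM + 1) difference from day 0 for the members tested in at least 1 of the 15 comparisons, in rows (L ligand, R receptor; ordered by the value in rectum at day 9), over days 3 to 20 of mid-colon, rectum and anus in columns; dots mark an adjusted p under 0.05 and grey cells were not tested. The red column of rectum at day 9 holds 22 rises, while the anus has its 2 strongest cells in Tnfrsf11b at days 14 and 20.

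TNF and its receptors are given first. Tnf, the ligand that gave the family its name, read 0.219, 0.215, 0.103 and 0.118 TPM in the 4 uninjured rectal samples and 1.68, 1.16 and 0.654 at day 3. It then read 12.2, 8.47 and 17.3 at day 6 and 20.4, 60.4 and 63.9 at day 9. No sample of days 6 or 9 overlapped with day 0, and the log2 differences were 3.50 (SE 0.21, adjusted p = 3.21e-05) and 5.24 (SE 0.36, adjusted p = 8.68e-06) by limma with Benjamini-Hochberg adjustment. At day 14 Tnf read 1.46, 17.3 and 35.0 TPM in mice 14, 15 and 16, a difference of 3.34 (SE 0.79, adjusted p = 0.0307). At day 20 it read 2.21, 15.2 and 0.534; it was not tested against day 0 there, since too few samples reached 1 TPM. In mid-colon Tnf rose to 3.43, 2.45 and 13.3 at day 6 and 16.1, 14.3 and 7.43 at day 9, from 0.0495, 0.360, 0.0335 and 0.225 at day 0 (2.38 and 3.49). In anus it read 4.83, 15.5 and 1.71 at day 6 against 1.62, 1.07, 1.14 and 1.07 at day 0, which missed the threshold (adjusted p = 0.0837), and 0.991, 3.23 and 0.722 at day 9. The Tnf call in rectum at day 14 was lost in each fit leaving out a mouse other than 14 (adjusted p from 0.0676 to 0.0978) and without a minimum TPM (adjusted p = 0.0660).

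Tnfrsf1b, the TNF receptor of leukocytes that binds TRAF2, rose with it. It read 5.75, 5.40, 7.52 and 4.83 TPM at day 0, 20.5, 16.5 and 31.5 at day 6 and 74.7, 135 and 139 at day 9 in rectum, with a log2 difference of 4.05 (SE 0.23, adjusted p = 4.33e-06) at day 9. All samples of days 6 and 9 lay above those of day 0. At day 14 mice 14, 15 and 16 read 11.9, 52.4 and 50.7, and at day 20 mice 17, 18 and 19 read 20.3, 33.7 and 9.13, all above day 0 (2.27 and 1.52). In mid-colon Tnfrsf1b read 4.14, 4.75, 5.10 and 2.41 TPM at day 0, 12.6, 8.98 and 27.0 at day 6, 32.5, 49.7 and 31.6 at day 9 and 7.10, 27.1 and 16.4 at day 14 (1.65, 2.94 and 1.67 from day 0). In anus it read 11.3, 14.4 and 5.66 at day 6 against 2.03, 2.22, 2.58 and 3.87 at day 0 (1.58). Tnfrsf1a, which carries a death domain, started from a high level and rose less: 31.2, 26.0, 32.4 and 24.2 TPM at day 0, 39.3, 39.1 and 63.5 at day 6 and 74.7, 98.0 and 124 at day 9 (1.74 at day 9). Per TPM, Tnfrsf1a was the more abundant receptor in every rectal sample of day 0, and at day 9 the ranges of both overlapped. Lta, lymphotoxin alpha, which shares these receptors, stayed at or below 2.68 TPM in every sample of the series. The Tnfrsf1b call in rectum at day 14 was lost in each fit leaving out a mouse other than 14 (adjusted p from 0.0551 to 0.0889) and without a minimum TPM (adjusted p = 0.0503). The Tnfrsf1b call in rectum at day 20 was lost in each fit leaving out a mouse other than 19 (adjusted p from 0.0918 to 0.123) and without a minimum TPM (adjusted p = 0.0987). The Tnfrsf1b call in mid-colon at day 6 was lost without a minimum TPM (adjusted p = 0.0549). The Tnfrsf1b call in mid-colon at day 14 was lost in each fit leaving out a mouse other than 14 (adjusted p from 0.0525 to 0.202), with a pseudocount of 0.1 (adjusted p = 0.0513), without a minimum TPM (adjusted p = 0.118) and with a filter of 5 TPM (adjusted p = 0.0540). The Tnfrsf1b call in anus at day 6 was lost without mouse 8 or 9 (adjusted p from 0.0606 to 0.0622).

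**Figure D3:**
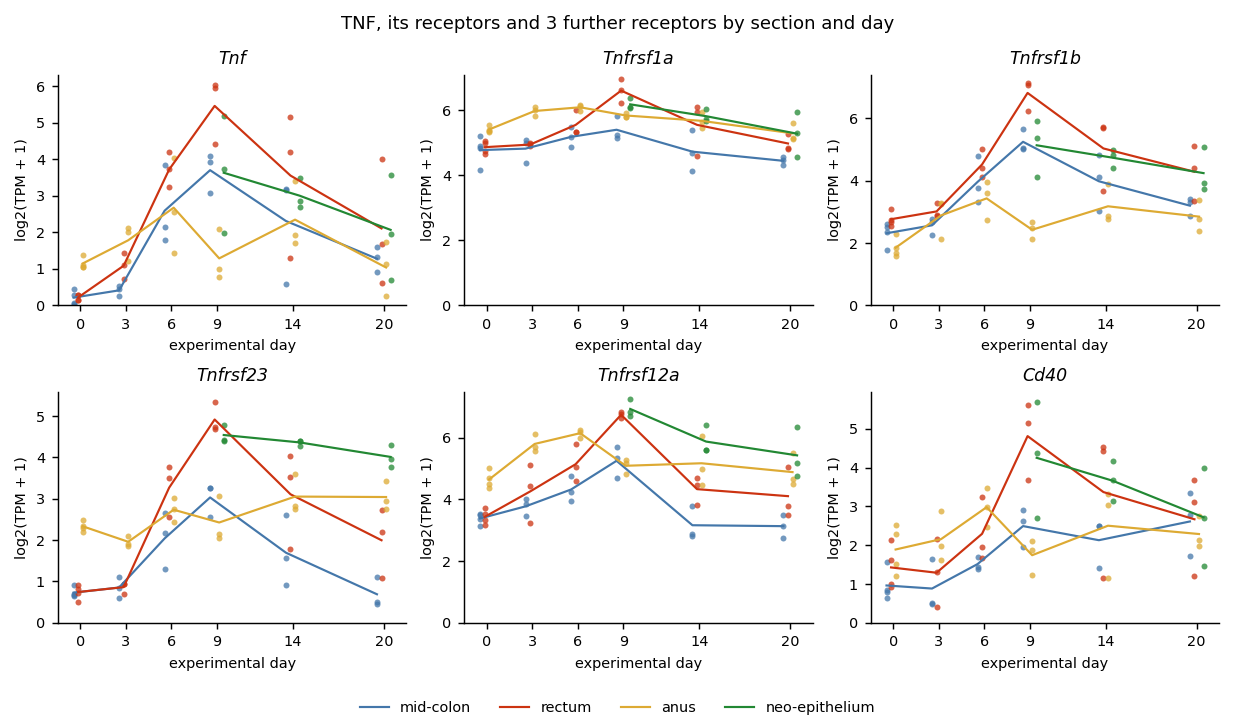
Log2(TPM + 1) of Tnf, Tnfrsf1a, Tnfrsf1b, Tnfrsf23, Tnfrsf12a and Cd40 against experimental day; points are mice, lines join the means of the log2 values of mid-colon (blue), rectum (red), anus (yellow) and neo-epithelium (green, from day 9). The rectal samples of day 9 lie above those of day 0 in each of the 6 panels, and the Tnf values of the 3 rectal samples of day 14 run from 1.46 to 35.0 TPM.

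Cell type markers moved on the same days. In rectum at day 9 all 6 neutrophil markers and 7 of 8 monocyte and macrophage markers rose. The neutrophil sum was 605 to 737 TPM at day 0 and 11947 to 13856 at day 9, and the monocyte and macrophage sum 142 to 209 and 1053 to 1216. All 6 T cell markers tested, of 9 listed, rose as well, with sums of 2.78 to 5.62 at day 0 and 24.7 to 31.9 at day 9. Of 9 colonic epithelial markers, 5 fell and 2 rose. Over all genes tested 33.5% were called higher and 20% lower. The neutrophil markers Csf3r and Cxcr2, whose low day 0 levels are given above, could enter the test only through day 9. With day 0 sums this low, not every T cell marker tested could reach 1 TPM in enough samples there. The counts of these markers were thus partly set by the filter. Rectal mouse 14 of day 14 had a neutrophil sum of 958 and a T cell sum of 12.5, while mice 15 and 16 had neutrophil sums of 2264 and 5100 and T cell sums of 51.9 and 39.2. Rectal mouse 19 of day 20 had a T cell sum of 5.46, against 32.0 and 31.4 in mice 17 and 18. The part of these cells in the changes of the family was not tested.

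Whether sections responded differently was tested as an interaction. At day 9 the change from day 0 was larger in rectum than in mid-colon for 8 of 30 members and smaller for none (6.55% of all genes called, 5.84% higher and 0.703% lower). A member could enter this test by reaching 1 TPM in 3 samples of a single group. Among those called, Tnfsf11, Tnfsf14 and Tnfrsf26 reached 1 TPM only in rectum at day 9. The count thus does not support a difference of the family. The largest were Tnfrsf9 (2.58) and Tnfrsf11b (2.51), followed by Tnfrsf23 (1.87). Tnf differed by 1.76 (SE 0.47, adjusted p = 0.0375), a value that fell to 1.16 without mouse 13. With the mouse as a block Tnfrsf1a, Tnfrsf1b and Fas also passed (adjusted p = 0.0346, 0.0281 and 0.0430). Without mouse 11 there were 12 calls and without mouse 13 5. At day 6 limma called none of 26 members between these sections (0% of all genes; 5 members with an unadjusted p under 0.05). Between anus and rectum at day 9 the change, taken with its sign, was lower in anus for 18 of 31 members and higher for none (19.9% of all genes called, 4.36% higher and 15.6% lower). Among those called, Tnfrsf8, Tnfsf14 and Tnfrsf26 reached 1 TPM only in rectum at day 9. This count thus does not support a difference of the family either. Tnf (-5.10) and Tnfrsf23 (-4.08) had the largest differences. At day 6, 5 of 29 differed (21.5% of all genes, 15.4% higher and 6.16% lower). Tnfrsf23 (-2.12), Tnf (-1.97), Tnfsf12 (-1.18) and Tnfrsf8 (-0.89) had the lower signed change in anus, and Tnfrsf18 (1.10) the higher. Here Tnfrsf8 reached 1 TPM only in rectum at day 6. Tnfsf12 did not rise in anus: it read 12.6, 6.69 and 9.30 TPM at day 6 and 11.4, 13.6, 11.6 and 10.0 at day 0. With the block 3 of these 5 passed, and without mouse 10 the Tnf value was -1.12. The Tnfrsf9 call between the responses of rectum and mid-colon at day 9 was lost with a pseudocount of 0.1 (adjusted p = 0.0550). The Tnf call between the responses of rectum and mid-colon at day 9 was lost in each fit leaving out a mouse other than 11 (adjusted p from 0.0857 to 0.278), with a pseudocount of 0.1 (adjusted p = 0.227), without a minimum TPM (adjusted p = 0.0813), with scaling by a trimmed mean of M-values (adjusted p = 0.0845) and with the mouse as a block (adjusted p = 0.0658). The Tnf call between the responses of anus and rectum at day 6 was lost in each fit leaving out a mouse other than 9 (adjusted p from 0.0553 to 0.138), without a minimum TPM (adjusted p = 0.0654) and with the mouse as a block (adjusted p = 0.0811). The Tnfsf12 call between the responses of anus and rectum at day 6 was lost without mouse 2, 3 or 10 (adjusted p from 0.0506 to 0.0845). The Tnfrsf8 call between the responses of anus and rectum at day 6 was lost without mouse 8 or 9 (adjusted p from 0.0690 to 0.0705) and with a pseudocount of 0.1 (adjusted p = 0.157). The Tnfrsf18 call between the responses of anus and rectum at day 6 was lost without mouse 1, 2, 9 or 10 (adjusted p from 0.0795 to 0.164), with a pseudocount of 0.1 (adjusted p = 0.0562), without a minimum TPM (adjusted p = 0.0621) and with the mouse as a block (adjusted p = 0.0624).

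Receptors of TRAIL and Fas ligand, which can start apoptosis, were next. Tnfrsf23, a decoy that binds TRAIL without a death domain, read 0.407, 0.661, 0.777 and 0.899 TPM in day 0 rectum, 10.3, 4.85 and 12.6 at day 6 and 25.5, 24.7 and 39.4 at day 9, so no sample of days 6 or 9 overlapped with day 0. The day 9 difference of 4.17 (SE 0.20, adjusted p = 1.61e-06) was second in the family after Tnf. In mid-colon it reached 4.93, 8.59 and 8.62 at day 9 (2.30), and in anus it stayed near its higher baseline, with 4.09, 3.90, 3.60 and 4.64 at day 0 and 3.18, 3.46 and 7.34 at day 9. Tnfrsf26, its neighbour on chromosome 7, rose to 1.36, 2.77 and 2.51 in rectum at day 9 (1.43), whereas Tnfrsf22, the decoy between them, read 3.19, 4.06 and 6.34 at day 9 and 2.47, 2.98, 2.59 and 3.12 at day 0 (adjusted p = 0.0624). The 3 genes are close relatives, so reads can be split wrongly between them, and 2 transcripts of Tnfrsf23 and 1 of Tnfrsf26 had no values. By limma Tnfrsf22 was called higher in mid-colon at day 9 (0.87, adjusted p = 0.0144) and in rectum at day 14 (0.48, adjusted p = 0.0457). The mid-colon call was lost without mouse 12 or 13 (adjusted p from 0.0656 to 0.0664). The rectal call was lost in each fit leaving out a mouse other than 14 (adjusted p from 0.0707 to 0.161) and without a minimum TPM (adjusted p = 0.0892). Tnfrsf10b, the receptor of TRAIL with a death domain, changed less, from 1.87, 1.80, 2.20 and 1.84 to 2.86, 3.30 and 4.74 TPM (0.64).

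Tnfsf10 (TRAIL) itself read 0.605, 0.684, 1.02 and 0.922 TPM in rectum at day 0 and 3.13, 4.43 and 3.36 at day 9 (1.36). At day 14 it read 1.98, 9.88 and 9.27 in mice 14, 15 and 16 (1.94). In mid-colon at day 14 the same mice read 1.67, 8.06 and 13.5 (2.12), and in anus 1.27, 3.23 and 2.39 (1.22). Mouse 14 was the lowest of its day in all 3 sections. Fas, a death receptor of epithelium and lymphocytes, rose from 10.4, 9.66, 9.20 and 12.6 to 16.4, 17.0 and 21.2 at day 6 and 24.3, 35.4 and 30.5 at day 9 (0.75 and 1.43) without overlap. Fasl, its ligand, was listed at or below 0.618 TPM outside neo-epithelium. In rectum it read 0.0299, 0, 0.0422 and 0 at day 0 and 0.512, 0.618 and 0.496 at day 9, under the limit for testing. In neo-epithelium it read 0.482, 0.488 and 0.411 at day 9, 0.829, 1.97 and 0.602 at day 14 and 0.104, 0.490 and 0 at day 20. Tnfrsf21 was the member that fell in mid-colon at day 9, from 32.3, 34.7, 34.9 and 16.0 to 10.9, 14.3 and 14.4 TPM (-1.05, SE 0.27, adjusted p = 0.0100). In rectum it read 18.2, 12.9 and 26.7 at day 9 against 36.0, 30.3, 30.9 and 20.6, which overlapped. The Tnfsf10 call in rectum at day 14 was lost in each fit leaving out a mouse other than 14 (adjusted p from 0.0562 to 0.104) and without a minimum TPM (adjusted p = 0.0568). The Tnfsf10 call in mid-colon at day 14 was lost in each fit leaving out a mouse other than 4 or 14 (adjusted p from 0.101 to 0.166) and without a minimum TPM (adjusted p = 0.115). The Tnfsf10 call in anus at day 14 was lost in each fit leaving out a mouse other than 4 or 14 (adjusted p from 0.0653 to 0.148) and without a minimum TPM (adjusted p = 0.0621).

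Tnfrsf12a (Fn14), a receptor of injured epithelium and stroma that binds TWEAK, had the highest mean of all members in neo-epithelium at day 9. In rectum it read 12.1, 9.15, 10.4 and 7.91 TPM at day 0, 31.7, 23.2 and 54.2 at day 6 and 97.7, 112 and 108 at day 9. The 3 mice of day 9 were close to each other, and the difference was 3.31 (SE 0.15, adjusted p = 1.17e-06). In anus it peaked earlier, with 68.6, 50.9 and 46.3 at day 3 (not called, adjusted p = 0.210) and 72.2, 62.9 and 74.4 at day 6 against 21.6, 31.1, 25 and 19.7 at day 0 (1.5), and read 35.1, 27.1 and 37.6 at day 9. The day 9 change differed between anus and rectum by -2.87 on the log2 scale. Neo-epithelium read 151, 104 and 112 at day 9 and 26.2, 35.1 and 79.4 at day 20, a difference of -1.5 (SE 0.40, adjusted p = 0.0351). TWEAK (Tnfsf12) rose in rectum from 2.71, 3.09, 2.92 and 4.88 to 7.32, 5.27 and 8.76 at day 6 and 8.79, 5.70 and 8.29 at day 9 (0.89 and 0.97). In anus it read 7.13, 6.08 and 8.21 at day 9, below the 11.4, 13.6, 11.6 and 10.0 of day 0, without passing the test (adjusted p = 0.102). The Tnfrsf12a call from day 9 to day 20 in neo-epithelium was lost in each fit leaving out a mouse other than 19 (adjusted p from 0.0735 to 0.103) and without a minimum TPM (adjusted p = 0.0700).

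Several members are co-stimulatory, acting between lymphocytes and antigen-presenting cells. Cd40, through which T cells activate B cells, macrophages and dendritic cells, read 1.02, 0.900, 3.41 and 2.10 TPM at day 0 and 11.8, 47.5 and 34.7 at day 9 (3.38, SE 0.47, adjusted p = 3.80e-04). At day 14 mouse 14 read 1.23 TPM, within the day 0 range, and mice 15 and 16 read 22.1 and 20.4. Its ligand Cd40lg was at most 0.459 TPM in any sample and was listed at 0 in all 4 rectal samples of day 0. Tnfrsf9 (4-1BB), a receptor induced on activated T cells, read 0.417, 0.0483, 0.0983 and 0.127 at day 0, 1.30, 2.20 and 5.52 at day 6 and 5.77, 20.6 and 12.0 at day 9 (1.64 and 3.41), with no overlap. Its ligand Tnfsf9 was detectable throughout and rose from 2.05, 2.51, 2.82 and 1.75 to 4.80, 7.09 and 7.98 at day 9 (1.2). Tnfrsf4 (OX40) rose from 0.670, 0.786, 0.811 and 0.720 to 3.00, 9.55 and 7.02 (2.00) and Tnfrsf18 from 2.08, 1.82, 2.19 and 1.82 to 6.38, 9.62 and 8.10 (1.59). Their ligands Tnfsf4 and Tnfsf18 stayed at or below 0.380 and 0.236 TPM.

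In anus Tnfrsf18 rose at day 6, from 4.82, 6.75, 12.3 and 8.07 to 17.1, 18.4 and 25 TPM (1.28). Tnfsf14 (LIGHT) rose in rectum from 0.188, 0.0263, 0.0444 and 0.0675 to 4.55, 3.06 and 3.68 at day 9 (2.13). Its receptor Tnfrsf14, which also acts as an inhibitory ligand, read 5.87, 13.0 and 17.2 at day 9 against 8.86, 10.7, 10.4 and 7.18 at day 0, so its samples spread to both sides of day 0 and did not pass the test. Tnfsf15 (TL1A), a ligand linked to Crohn's disease, and its receptor Tnfrsf25 stayed at or below 1.04 and 1.03 TPM in every sample. The Tnfrsf18 call in anus at day 6 was lost without mouse 2, 8, 9 or 10 (adjusted p from 0.0550 to 0.0873).

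Tnfrsf8 (CD30), a receptor of activated lymphocytes, had its highest rectal mean at day 14. It read 0.676, 0.691, 0.511 and 0.710 TPM at day 0, 2.49, 2.36 and 1.51 at day 6, 4.75, 3.90 and 4.96 at day 9, 7.11, 13.0 and 9.91 at day 14 and 4.71, 5.69 and 5.66 at day 20. All 12 samples of days 6 to 20 lay above day 0. The differences were 2.71 (SE 0.19, adjusted p = 9.79e-04) at day 14 and 1.95 (SE 0.15, adjusted p = 0.00231) at day 20, and both calls held in every fit that left out 1 mouse (7 of the 7 and 7 of the 7). Mid-colon read 4.84, 4.01 and 3.2 at day 9 and 1.47, 7.99 and 7.12 at day 14 (1.97 and 2.16). Anus stayed at or below 0.980 TPM. Its ligand Tnfsf8 was at most 0.748 TPM in any sample. The Tnfrsf8 call in mid-colon at day 14 was lost in each fit leaving out a mouse other than 4 or 14 (adjusted p from 0.0586 to 0.126) and without a minimum TPM (adjusted p = 0.0711).

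Lymphotoxin signals through Ltbr on stromal and epithelial cells and keeps up lymphoid follicles. Ltb, its membrane-bound subunit, read 1.36, 0.542, 0.321 and 2.19 TPM in day 0 rectum and 4.69, 6.14 and 9.64 at day 9, without overlap (1.93, SE 0.34, adjusted p = 0.00135). At day 14 it read 1.71, 22.4 and 9.43 in mice 14, 15 and 16 and at day 20 10.8, 7.90 and 0.644 in mice 17, 18 and 19, which overlapped with day 0 and did not pass the test. In mid-colon it rose at day 9, to 2.08, 1.87 and 1.45 from 0, 0.830, 0.498 and 0.595 (0.95). Lta read 0.316, 0, 0.128 and 0.583 at day 0, 0.464, 0.400 and 0.964 at day 9 and 0.273, 2.68 and 1.01 at day 14 in rectum. Ltbr was high and nearly level: 51.7, 42.7, 45.2 and 37.3 at day 0 and 51.0, 42.1 and 60.0 at day 9. At day 20 it was lower, at 30.4, 27.1 and 29.8 (-0.58, SE 0.13, adjusted p = 0.0404). The Ltbr call in rectum at day 20 was lost in each fit leaving out a mouse other than 19 (adjusted p from 0.0522 to 0.116) and without a minimum TPM (adjusted p = 0.0693).

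B cell markers also varied between these mice. The sum of 8 B cell markers in rectum was 14.5, 2.31, 1.74 and 35.8 TPM at day 0, 11.3, 309 and 116 in mice 14, 15 and 16 and 204, 121 and 19.9 in mice 17, 18 and 19. Lta, Ltb and Tnfrsf13c, the BAFF receptor of B cells, had their highest rectal value in mouse 15, as the B cell sum had. Tnfrsf13c read 0.518, 0, 0.0877 and 1.36 at day 0, 0.365, 10.8 and 3.52 at day 14 and 6.31, 3.61 and 0.635 at day 20, which overlapped with day 0 and did not pass the test. The part of B cells or of a follicle in the piece was not tested. Of 8 genes of lymphoid tissue known to lie downstream of lymphotoxin, 6 were tested in rectum at day 9, of which 4 rose and 1 fell (33.5% and 20% of all genes). Cxcl13, the chemokine that draws B cells to follicles, rose by 3.77 on the log2 scale, from 7.54 ± 7.29 to 130 ± 132 TPM (mean ± SD), and Il7, a cytokine of lymphocyte survival, fell by 0.59.

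**Figure D4:**
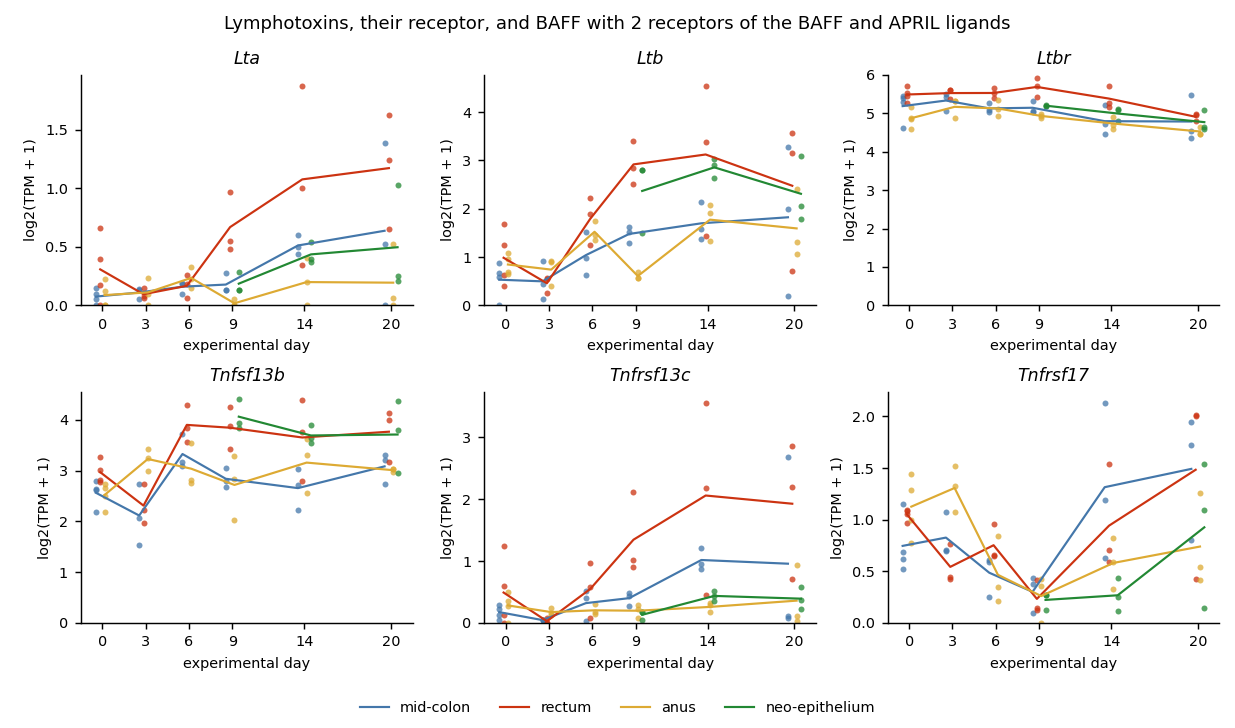
Log2(TPM + 1) of Lta, Ltb, Ltbr, Tnfsf13b, Tnfrsf13c and Tnfrsf17 against experimental day; points are mice and lines join the means of the log2 values of each section, coloured as in the legend. The rectal points of Ltb and Tnfrsf13c fan out from day 14, while Ltbr stays between 19.4 and 60.0 TPM in every sample and Tnfrsf17 is at most 0.350 TPM in every sample of day 9.

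BAFF and APRIL, survival ligands of B lineage cells, went apart in the injured rectum. Tnfsf13b (BAFF) rose from 5.86, 7.03, 8.69 and 6.03 TPM at day 0 to 13.3, 10.8 and 18.7 at day 6 and 13.6, 9.70 and 17.9 at day 9 (0.93 and 0.88); 5 of its 6 transcripts had no values. Tnfsf13 (APRIL) fell from 14.4, 13.7, 15.9 and 18.7 to 11.6, 8.97 and 7.72 at day 9 (-0.68, SE 0.17, adjusted p = 0.00811). At day 14 APRIL read 25.5, 29.1 and 27.7, above all samples of day 0 (0.78, SE 0.13, adjusted p = 0.0131), and at day 20 18.5, 22.1 and 16.7. From day 9 to day 20 it rose by 0.95 on the log2 scale, the one member called higher by limma. With scaling by a trimmed mean of M-values 2 members were called higher. Tnfrsf17, the plasma cell receptor BCMA, fell in rectum from 1.14, 0.955, 1.07 and 1.12 to 0.108, 0.0934 and 0.337 at day 9 (-0.82). At day 20 it read 3.05, 3.02 and 0.344 in mice 17, 18 and 19. The sum of 4 plasma cell markers was 21.8, 22.6 and 28.7 in rectum at day 9 and 946, 715 and 37.3 at day 20, so mouse 19 was low in both. Tnfrsf13b (TACI), a receptor of both ligands, read 0.629, 0.507, 0.636 and 1.27 at day 0 and 1.66, 2.64 and 3.62 at day 9 (1.03). The Tnfsf13 call in rectum at day 14 was lost without mouse 16 (adjusted p = 0.0518). The Tnfsf13 call from day 9 to day 20 in rectum was lost without mouse 12, 13 or 18 (adjusted p from 0.0659 to 0.105).

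RANKL, RANK and osteoprotegerin were all called in rectum at day 9 and from day 9 to day 20 in neo-epithelium, but not all in the same direction. Tnfsf11 (RANKL) was highest in neo-epithelium at day 9, at 11.1, 14.2 and 16.3 TPM, and read 2.19, 5.16 and 12.3 at day 14 and 0.508, 1.57 and 0.623 at day 20. The fall from day 9 to day 20 was -2.99 (SE 0.26, adjusted p = 0.00213) on the log2 scale and held in all 6 fits leaving out a mouse. In rectum RANKL read 0.227, 0.0636, 0 and 0.190 at day 0 and 4.56, 2.56 and 2.40 at day 9 (1.86), and in anus 2.89, 1.46 and 1.51 at day 6 from 0.210, 0, 0.0476 and 0.153 (1.39). Mid-colon stayed at or below 1.02 TPM. Neo-epithelium was above the anus of the same mouse in 9 of 9 mice (1.81) and above the rectum in 8 of 9 (1.03). The mean log2 difference from rectum was 1.85 at day 9, 1.45 at day 14 and -0.20 at day 20; this change between days was not tested. The Tnfsf11 call between neo-epithelium and rectum was lost without mouse 11, 12, 13 or 16 (adjusted p from 0.0517 to 0.0802) and with a pseudocount of 0.1 (adjusted p = 0.0503).

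Tnfrsf11b, the secreted decoy osteoprotegerin, was highest in neo-epithelium after day 9. There it read 10.3, 17.0 and 21.6 TPM at day 9, 73.7, 215 and 188 at day 14 and 108, 171 and 41.8 at day 20; the top 2 values of any member in any sample were among these. Day 20 lay above day 9 without overlap (2.48, SE 0.52, adjusted p = 0.0178). In anus it read 5.27, 4.02, 3.35 and 3.79 at day 0 and 4.33, 4.32 and 8.96 at day 9, then 75.5, 27.6 and 64.7 at day 14 and 31.2, 58.1 and 41.7 at day 20. No anal sample of days 14 and 20 overlapped with day 0; the differences were 3.37 (SE 0.34, adjusted p = 0.00533) and 3.10 (SE 0.24, adjusted p = 0.00164), and both held in every fit that left out 1 mouse (7 of the 7 and 7 of the 7). Rectum and mid-colon had both risen at day 9. Rectum went from 0.855, 0.717, 0.879 and 0.606 at day 0 to 14.3, 39.8 and 31.5 at day 9 (3.95). It then read 4.37, 13.2 and 15.0 at day 14 and 32.6, 17.6 and 1.96 at day 20 in mice 17, 18 and 19. The day 20 difference was 2.80. Mid-colon read 0.480, 0.383, 0.659 and 0.719 at day 0 and 2.08, 5.45 and 2.84 at day 9 (1.45). The Tnfrsf11b call from day 9 to day 20 in neo-epithelium was lost in each fit leaving out a mouse other than 18 or 19 (adjusted p from 0.0532 to 0.0663). The Tnfrsf11b call in rectum at day 20 was lost in each fit leaving out a mouse other than 19 (adjusted p from 0.0949 to 0.129) and without a minimum TPM (adjusted p = 0.108).

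Set against the rectum of the same mouse, osteoprotegerin in neo-epithelium changed sides: it was lower in all 3 mice at day 9 (mean log2 difference -0.71) and higher in all 3 at day 14 (3.76) and all 3 at day 20 (2.92). The change of side between days was not tested. The pooled difference of 1.99 (SE 0.63, adjusted p = 0.0173) averages over these opposite directions. Against anus it was higher in 8 of 9 mice (1.30). Summed endothelial markers were 12.4 to 27.9 TPM in anus at day 0, 40.6 to 134 at day 14 and 54.7 to 109 at day 20, with none of the 5 called on those days. Fibroblast markers summed to 1213 to 1677 at day 0, 1156 to 1529 at day 14 and 1310 to 1692 at day 20 in anus, again with none called. In neo-epithelium 4 of 5 fibroblast markers fell from day 9 to day 20, with sums of 1246 to 1787 and 373 to 713. The part of these cells was not tested. The Tnfrsf11b call between neo-epithelium and rectum was lost without mouse 15 or 16 (adjusted p from 0.0535 to 0.0560).

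Tnfrsf11a (RANK), the receptor, was high in colonic tissue. It read 22.8, 22.5, 27.7 and 22.4 TPM in day 0 rectum and fell to 17.3, 13.1 and 16.9 at day 9 (-0.57, SE 0.14, adjusted p = 0.00845), without overlap. In neo-epithelium it read 5.05, 3.14 and 3.32 at day 9 and 11.9, 6.60 and 11.3 at day 20, a rise of 1.16 on the log2 scale (adjusted p = 0.0238). It was below rectum in 9 of 9 mice (-1.40, SE 0.16, adjusted p = 3.2e-06) and above anus in 9 of 9 (0.79). All 9 colonic epithelial markers were lower in neo-epithelium than in rectum and 8 of 9 higher than in anus; from day 9 to day 20 of neo-epithelium 7 of the 8 tested rose. Their part in the RANK levels was not tested. The Tnfrsf11a call from day 9 to day 20 in neo-epithelium was lost in each fit leaving out a mouse other than 11 or 18 (adjusted p from 0.0599 to 0.0961) and without a minimum TPM (adjusted p = 0.0501).

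**Figure D5:**
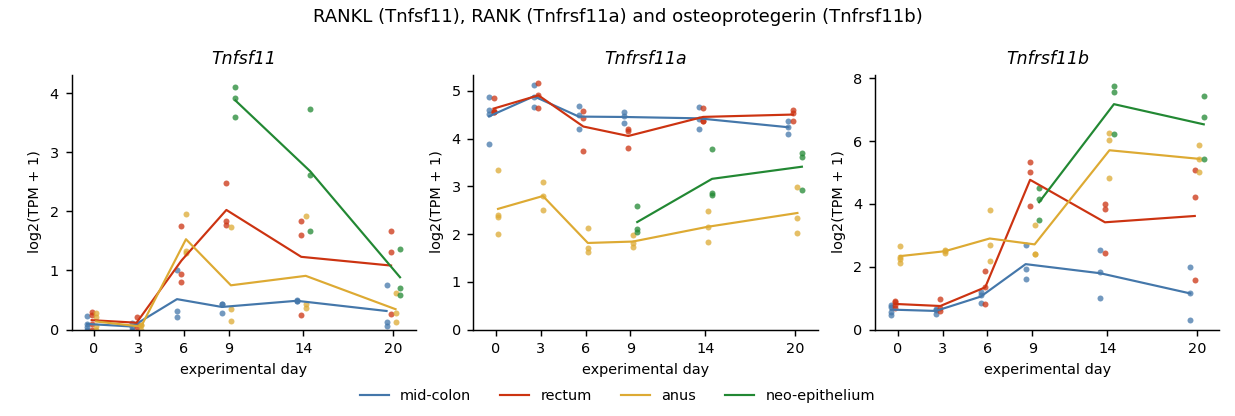
Log2(TPM + 1) of Tnfsf11, Tnfrsf11a and Tnfrsf11b against experimental day; points are mice and lines join the means of the log2 values of mid-colon (blue), rectum (red), anus (yellow) and neo-epithelium (green). Green falls in the RANKL panel and rises in the osteoprotegerin panel after day 9, and RANK is at least 12.3 TPM in every mid-colon and rectal sample.

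Neo-epithelium lies beside rectum and anus and was compared with both in the same 9 mice, with day as a covariate. Against anus 20 of 29 members were higher and 3 lower (58.5% of all genes called, 38.1% higher and 20.4% lower). Against rectum 5 of 32 were higher and 8 lower (42%, 20.7% higher and 21.3% lower). Of the members tested, 3 of the 29 and 5 of the 32 reached 1 TPM in enough samples in only 1 of the tissues compared. Tnfrsf19 set it apart from anus most: the 9 neo-epithelial samples ran from 0.507 to 1.90 TPM and the anal ones of the same days from 5.74 to 11.3 (-1.98, SE 0.12, adjusted p = 9.81e-10). It was lower than anus in 9 of 9 mice, and higher than rectum in 9 of 9 (0.67). Skeletal muscle markers, summed to 5869 to 6831 TPM in anus and 3.41 to 4.18 in neo-epithelium at day 9, and fibroblast markers, 908 to 1172 and 1246 to 1787, give the tissue make-up beside it. The part of these in the Tnfrsf19 difference was not tested.

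Tnfrsf23 was higher in neo-epithelium than in anus in 9 of 9 mice, at 20.2, 18.5 and 20.0 TPM against 11.0, 5.69 and 6.10 at day 14, and its samples did not overlap with those of anus over the 3 days (1.46, SE 0.19, adjusted p = 7.38e-06). Against rectum it was lower in all 3 mice at day 9 (-0.38) and higher in all 6 at days 14 and 20 (1.25 and 2.01). The pooled difference was 0.96. Tnfrsf1b (1.89), Fas (1.13), Ltb (1.19) and Tnfrsf9 (1.66) were higher than in anus in all 9 mice. Tnf read 12.2, 2.98 and 35.1, 5.43, 6.21 and 10.1 and 2.84, 10.8 and 0.627 at days 9, 14 and 20, above anus by 1.34 (SE 0.46, adjusted p = 0.0187) in 8 of 9 mice. Against rectum the lower members were Tnfrsf8 (-1.48) and Tnfrsf13c (-1.46), each lower in all 9 mice, as were all 8 B cell markers by the test, and Tnfrsf11a, Tnfrsf14 (-1.04), Tnfsf13 (-1.04), Lta (-0.60), Tnfrsf10b (-0.39) and Ltbr (-0.34). With the mouse as a block Fas (0.0303) and Tnfrsf17 (0.0467) were also called lower than in rectum, and Tnfsf10 higher than in anus (0.00416). The Tnfrsf23 call between neo-epithelium and rectum was lost without mouse 14, 15, 17, 18 or 19 (adjusted p from 0.0621 to 0.0998), without a minimum TPM (adjusted p = 0.0578) and with the mouse as a block (adjusted p = 0.0533). The Tnf call between neo-epithelium and anus was lost without mouse 11 or 13 (adjusted p from 0.0574 to 0.0598). The Tnfrsf10b call between neo-epithelium and rectum was lost without mouse 15 (adjusted p = 0.0504). The Ltbr call between neo-epithelium and rectum was lost without mouse 15 (adjusted p = 0.0576).

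Within neo-epithelium 4 of 28 members rose and 3 fell from day 9 to day 20 (26.2% of all genes called, 10.1% higher and 16.1% lower). Of the 28, 5 reached 1 TPM in enough samples on only 1 of these days. Beside those above, Tnfsf13 rose from 3.2, 5.21 and 3.73 to 12.4, 10.3 and 7.53 TPM (1.13) and Tnfsf12 fell from 6.82, 8.85 and 9.79 to 3.27, 2.22 and 3.11 (-1.29, SE 0.20, adjusted p = 0.00731), both without overlap. Tnfrsf8 rose by 1.24. The count of calls was between 2, without mouse 13 or 17, and 10, without mouse 18. The Tnfsf13 call from day 9 to day 20 in neo-epithelium was lost without mouse 11, 13 or 17 (adjusted p from 0.0573 to 0.0788). The Tnfrsf8 call from day 9 to day 20 in neo-epithelium was lost in each fit leaving out a mouse other than 18 (adjusted p from 0.0757 to 0.123) and without a minimum TPM (adjusted p = 0.0671).

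In rectum, 11 of 29 members were lower at day 20 than at day 9 and 1 was higher (20.8% of all genes called, 5.95% higher and 14.8% lower). Of the 29, 9 reached 1 TPM in enough samples on only 1 of these days, so the count does not support a fall of the family. The largest falls were in Tnf (-3.35, SE 0.83, adjusted p = 0.0272), Tnfrsf23 (-2.92) and Tnfrsf12a (-2.64). The calls of Tnfrsf23 and Tnfrsf12a held in all 6 fits leaving out a mouse. Without mouse 13 there were 4 calls and without mouse 12 7. All 6 neutrophil markers and 6 of 8 monocyte and macrophage markers were lower too, with sums of 517 to 1345 and 322 to 518 TPM at day 20. The Tnf call from day 9 to day 20 in rectum was lost in each fit leaving out a mouse other than 11 or 18 (adjusted p from 0.0515 to 0.109), without a minimum TPM (adjusted p = 0.0788) and with scaling by a trimmed mean of M-values (adjusted p = 0.0526).

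Genes that carry the signal inside the cell were followed by 2 lists. Of 12 NF-kB subunits and feedback inhibitors, 10 rose and 1 fell in rectum at day 9, with a median log2 difference of 1.33 beside 0.13 over all genes, of which 53.5% were called (33.5% higher and 20% lower). Nfkbia, the inhibitor that holds NF-kB in the cytoplasm, rose by 2.22 to 234 ± 73.2 TPM (mean ± SD, n = 3), Nfkbiz, a nuclear co-activator, by 3.16 and Tnfaip3 (A20), which ends the signal, by 1.32. Tnip1, a partner of A20, fell by 0.66. Of 26 adaptors and signalling genes, 13 rose and 1 fell (median 0.35). The total share called was close to that of all genes, but the directions were not, with 33.5% of all genes higher and 20% lower. Traf1, an adaptor that is itself a target of NF-kB, rose by 3.00, and Ripk3 and Mlkl, the pair that carries out necroptosis, by 2.91 and 1.88. In mid-colon at day 9, 4 of the 12 NF-kB genes rose and 2 fell, where 43.4% of all genes were called (26.5% higher and 17% lower). By the interaction 7 of the 12 had a larger change in rectum, as had 5.84% of all genes. In neo-epithelium 11 of these 12 and 19 of the 26 adaptors were higher than in anus, as were 38.1% of all genes. Of 7 further family genes whose symbols fall outside the rule, Relt and Eda2r were tested in rectum at day 9 and both rose (1.70 and 0.81).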

How the data were processed

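RNA of mucosa cut from mid-colon, rectum, anus and neo-epithelium of 19 mice was sequenced in 66 libraries (stranded mRNA kit, single-end reads of 75 bases, per the labels' protocols). The authors deposited 1 table of TPM values (an abundance per transcript length with a fixed total per sample) for every transcript and sample. The submitters' processing notes name kallisto, CASAVA and mm10; versions, roles and the transcript annotation are not given in the sources used here. Of 126860 rows, 37344 had no values and 1318 repeated a transcript already listed, so 88198 transcripts were kept and summed to 30452 genes. Whole samples then summed to between 999999.8 and 1000000.2 TPM. Transcripts with no gene identifier, 1284 in all, held 0.563 to 2.83% of a sample and entered no gene.

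Groups are section and day, with 3 mice each, or 4 at day 0. Differences were tested by limma 3.58.1 (R 4.3.3) with a mean-variance trend on log2(TPM + 1) over all genes that reached 1 TPM in at least the number of samples of the smaller of both groups (3 for neo-epithelium and interactions), adjusted by Benjamini-Hochberg over all of them and called under 0.05. A fold on this scale understates changes of low genes. P-values measure the spread between mice of 1 cohort. The test was run on simulated data with 200 planted changes in 3 of the comparisons. It recovered 95.5 to 97.5% of them, and 4.02 to 4.93% of its calls were false. The planted changes were large, lay in well-expressed genes and had no effect shared by the sections of a mouse. The check thus does not cover small changes, low genes or the pairing. Neo-epithelium was compared over days 9, 14 and 20 with day in the model, and responses of sections by an interaction. Sections of 1 mouse are paired by the mouse number in the labels: the mean correlation of their deviations from the group means was 0.07 between anus and rectum at day 0, 0.16 between rectum and mid-colon at day 0, 0.29 between neo-epithelium and rectum and 0.18 between neo-epithelium and anus. The mouse entered as a block as an alternative. Others were a pseudocount of 0.1, no filter, a filter of 5 TPM, scaling by a trimmed mean of M-values and leaving out each mouse. Figures were drawn with matplotlib 3.10.9. Values in every sample were to be given for Tnf, Lta, Ltb, Fasl, Tnfrsf1a, Tnfrsf1b, Ltbr, Fas and Cd40, and for the 3 largest rises and falls per comparison among members called, without overlap and with a mean of at least 5 TPM in 1 group. The text prints these only for the groups its sentences compare, not for every group as planned, and other members shown by sample were chosen after their values were seen. The members and the gene lists were chosen with earlier results of these data known.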

Additional observations from a re-analysis of the deposited data

Results flagged for a closer look

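In the groups of 4 mice at day 0, 1 mouse stood apart from the other 3 in 3 of 53 groups, by the gap to the nearest sample over the whole range; chance alone gives about 1 in 20. Tnf in anus was 1.62 TPM in the highest sample and 1.07 to 1.14 in the others. Tnfrsf11a in rectum was 27.7 TPM in the highest and 22.4 to 22.8 in the others. Tnfrsf21 in mid-colon was 16 TPM in the lowest and 32.3 to 34.9 in the others.

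The change from day 0 differed between sections by the interaction term for these members, given as log2 differences of the changes. Some of them, such as Tnfsf14 and Tnfrsf26 at day 9, reached 1 TPM in only 1 of the groups compared. Anus minus rectum at day 6 gave Tnfrsf18 (1.10), Tnfrsf8 (-0.89), Tnfsf12 (-1.18), Tnf (-1.97) and Tnfrsf23 (-2.12). Anus minus rectum at day 9 gave Tnfrsf13b (-0.96), Fas (-1.18), Tnfrsf26 (-1.22), Tnfsf10 (-1.24), Tnfrsf1a (-1.31), Tnfsf9 (-1.36), Tnfsf12 (-1.61), Tnfrsf8 (-1.88), Tnfrsf4 (-1.89), Tnfsf14 (-1.93), Ltb (-2.17), Tnfrsf12a (-2.87), Tnfrsf9 (-3.34), Tnfrsf1b (-3.48), Cd40 (-3.53), Tnfrsf11b (-3.58), Tnfrsf23 (-4.08) and Tnf (-5.10). Rectum minus mid-colon at day 9 gave Tnfrsf9 (2.58), Tnfrsf11b (2.51), Tnfrsf23 (1.87), Tnf (1.76), Tnfsf14 (1.69), Tnfsf11 (1.58), Tnfrsf12a (1.44) and Tnfrsf26 (1.27).
The Tnfrsf13b call between the responses of anus and rectum at day 9 was lost in each fit leaving out a mouse other than 4 or 11 (adjusted p from 0.0755 to 0.116), with a pseudocount of 0.1 (adjusted p = 0.0570) and with scaling by a trimmed mean of M-values (adjusted p = 0.0583). The Fas call between the responses of anus and rectum at day 9 was lost without mouse 12 or 13 (adjusted p from 0.0532 to 0.0623). The Tnfrsf26 call between the responses of anus and rectum at day 9 was lost with a pseudocount of 0.1 (adjusted p = 0.0527). The Tnfsf10 call between the responses of anus and rectum at day 9 was lost with a pseudocount of 0.1 (adjusted p = 0.0561). The Tnfsf9 call between the responses of anus and rectum at day 9 was lost without mouse 12 (adjusted p = 0.0579). The Tnfsf11 call between the responses of rectum and mid-colon at day 9 was lost with a pseudocount of 0.1 (adjusted p = 0.0732). The Tnfrsf12a call between the responses of rectum and mid-colon at day 9 was lost without mouse 13 (adjusted p = 0.0527). The Tnfrsf26 call between the responses of rectum and mid-colon at day 9 was lost without mouse 13 (adjusted p = 0.0532) and with a pseudocount of 0.1 (adjusted p = 0.0504).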

How the results depend on the processing

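Of 188 called differences of members, none changed sign under any of the alternatives run. Calls lost numbered 13 with a pseudocount of 0.1, 32 with no filter, 1 of the 112 still tested with a filter of 5 TPM, 5 with scaling by a trimmed mean of M-values and 5 of 85 with the mouse as a replicate block, and 61 were lost in at least 1 fit that left out a mouse. Counts are listed below only where the larger was more than 1.5 times the smaller, so a count not listed can still have changed. With a pseudocount of 0.1 the count of members called changed to 2 from 4 in mid-colon at day 14, 4 from 8 in the responses of rectum and mid-colon at day 9 and 3 from 5 in the responses of anus and rectum at day 6. With no filter on low values the count of members called changed to 1 from 0 in rectum at day 3, 4 from 9 in rectum at day 14, 1 from 4 in rectum at day 20, 4 from 8 in mid-colon at day 6, 1 from 2 in anus at day 14, 0 from 1 in rectum against mid-colon at day 0, 4 from 7 in neo-epithelium from day 9 to day 20 and 3 from 5 in the responses of anus and rectum at day 6. With a filter of 5 TPM the count of members called changed to 7 from 11 in rectum at day 6, 14 from 25 in rectum at day 9, 5 from 9 in rectum at day 14, 2 from 4 in rectum at day 20, 4 from 8 in mid-colon at day 6, 4 from 15 in mid-colon at day 9, 0 from 4 in mid-colon at day 14, 1 from 2 in anus at day 14, 10 from 17 in anus against rectum at day 0, 0 from 1 in rectum against mid-colon at day 0, 5 from 8 in the responses of rectum and mid-colon at day 9 and 10 from 18 in the responses of anus and rectum at day 9. With scaling by a trimmed mean of M-values the count of members called changed to 8 from 4 in mid-colon at day 14 and 2 from 0 in mid-colon at day 20. Smaller changes with this scaling included 6 from 4 in rectum at day 20 and 21 from 23 in neo-epithelium against anus. With the mouse as a replicate block the count of members called changed to 3 from 5 in the responses of anus and rectum at day 6. Leaving out 1 mouse at a time gave counts of 0 to 3 in rectum at day 3, 2 to 24 in rectum at day 14, 1 to 19 in rectum at day 20, 2 to 10 in mid-colon at day 6, 0 to 13 in mid-colon at day 14, 0 to 5 in mid-colon at day 20, 2 to 6 in anus at day 6, 1 to 2 in anus at day 14, 4 to 12 in rectum from day 9 to day 20, 0 to 1 in rectum against mid-colon at day 0, 2 to 10 in neo-epithelium from day 9 to day 20, 5 to 12 in the responses of rectum and mid-colon at day 9 and 2 to 5 in the responses of anus and rectum at day 6. A filter of 5 TPM tests fewer members; the cause of the other changes was not tested. Tnfrsf14, not called in rectum at day 9, changed sign without mouse 13; its log2 difference was -0.051 there and at most 0.65 in the fits leaving out another mouse. Depth is unknown, so counting error could not be set beside any value.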
